A study of Mus musculus with 8 samples.

Results

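Star, Cyp11a1 and Cyp19a1 encode the protein that starts ovarian steroid synthesis and the enzymes at its first and last steps, and each was followed here through 1 transcript: ENSMUST00000033979 for Star (4046 bases), ENSMUST00000034874 for Cyp11a1 (2120 bases) and ENSMUST00000034811 for Cyp19a1 (2373 bases). They were chosen by identifier, as 3 of the 110473 transcripts listed in every RNA table, and all 3 passed the filter on low counts. Their genes are ENSMUSG00000031574.8, ENSMUSG00000032323.13 and ENSMUSG00000032274.9. The series compared granulosa cells, the somatic cells around the oocyte, of control mice (CTL, Nr5a2 f/f Amhr2 Cre/-) and of conditional knockout mice (cKO, Nr5a2 f/f Amhr2 Cre/+), in which a Cre driven by Amhr2 deletes the nuclear receptor LRH-1 (Nr5a2) in granulosa cells from the primary follicle on. Both genotypes carry the floxed alleles, the strain is C57BL/6, and females aged 22 to 25 days were given equine chorionic gonadotropin (eCG, 5 IU) to make follicles grow. Cells were taken by puncture 44 h later, before hCG (0 h), or 4 h after 5 IU of human chorionic gonadotropin (hCG), the stand-in for the ovulatory surge of luteinising hormone. Each of the 4 groups had 3 RNA libraries, 12 in all. No label used here says whether a library came from 1 mouse or a pool, so the p-values rest on spread that may be technical. In the main tests that spread was shared by all 4 groups and strongly moderated across transcripts. For the 3 transcripts it came mostly from other transcripts, and the groups compared set little of it.

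Steroid synthesis begins when the STAR protein moves cholesterol to the inner mitochondrial membrane, where CYP11A1 cuts its side chain to make pregnenolone. In granulosa cells CYP19A1, the aromatase, turns androgens that come from theca cells into oestrogens. In the textbook account, follicle-stimulating hormone induces Cyp19a1 in growing follicles, and the ovulatory surge lowers Cyp19a1 and raises Star and Cyp11a1 as granulosa cells turn into luteal cells. LRH-1 and its relative SF-1 bind sites built on an AGGTCA-type core and are known regulators of steroidogenic genes.

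Because LRH-1 is the factor removed in the cKO, the RefSeq promoter windows (300 bases, 250 before to 50 after each annotated start, build GRCm38.p6) were searched on both strands for the 8-base forms CAAGGTCA and CAAGGCCA and, chosen after the sequences were seen, for the half-site AGGTCA, which CAAGGTCA contains. The table held 2 windows for Cyp11a1 and 3 for Cyp19a1. Star was not in it. The sites found are printed 5′ to 3′ on the gene's strand, with the match in capitals (TGGCCTTG and TGACCT are CAAGGCCA and AGGTCA read on the other strand).
Cyp11a1, chr9:58014912-58014941, plus strand: gaggaaggggggAGGTCAccgctccatcag
Cyp19a1, chr9:54268228-54268257, minus strand: agttggaatttgTGACCTctagaacccaag
Cyp19a1, chr9:54268128-54268157, minus strand: ggatgggatgcTGGCCTTGgctgtaggggg
The Cyp11a1 half-site began 28 bases before the start of its window's transcript. The Cyp19a1 matches began 81 bases before and, for the 8-base form, at base 19 after the start of the most upstream of that gene's 3 windows. CAAGGCCA was held by 1 of these 5 windows and by 2.40% of the 32851 windows of all genes, AGGTCA by 2 of 5 and 16.3%, and CAAGGTCA by 0 of 5 and 1.56%. A match is a match of letters and shows no binding. Which RefSeq start belongs to which transcript, and which peaks of the series lie at these genes, was not analysed here.

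The libraries held 9250965 to 18022984 estimated counts before hCG and 12517554 to 23753060 after it, and transcripts above 0 numbered 26687 to 40660 before hCG and 11784 to 27351 after it. Levels are given in TPM, a share of all transcripts in the library that corrects for length and depth. Tests were edgeR quasi-likelihood fits over 32944 transcripts, with p-values adjusted by the Benjamini-Hochberg method and called under 0.05. The spread that edgeR estimated, pooled over the groups and moderated across transcripts, was wide. Its biological coefficient of variation had a median of 2.64 over all transcripts tested. It was 1.84, 1.91 and 2.07 for Star, Cyp11a1 and Cyp19a1. The SD over the mean of the measured TPM was lower in every group. For Star it was 1.56 and 0.572 in CTL before and after hCG, and 0.183 and 0.391 in cKO. For Cyp11a1 and Cyp19a1 it ran from 0.805 to 1.51. Earlier work on these data found 3 libraries apart from the rest, each numbered 1: both CTL groups hold one and the cKO group before hCG holds the other. The called result is given with and without them. Cell type markers, other genes of the pathway and Nr5a2 itself were not checked, because no table used here pairs transcript identifiers with gene names. In RNA from many cells, fewer cells of a type and less RNA per cell cannot be told apart.

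Star was low before hCG and high after it in both genotypes. In CTL before hCG, libraries 1, 2 and 3 held 0.280, 1.13 and 20.2 TPM, from 15.8, 40.0 and 653 estimated counts. After hCG the CTL libraries held 223, 251 and 587 TPM, from 16405, 15647 and 24550 estimated counts. Every CTL library after hCG was above every one before it, and the lowest after hCG was 11.05 times the highest before, which was library 3. The mean was 7.20 ± 11.2 TPM before and 353 ± 202 TPM after hCG (SD, n = 3), a 49.1-fold rise in the mean.

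In cKO, Star showed the same direction. The cKO libraries held 2.97, 2.19 and 3.14 TPM before hCG and 145, 64.8 and 99.2 TPM after it. The libraries before hCG lay close together, and those after hCG were at least 20.7 times higher than any of them. The mean went from 2.76 ± 0.505 to 103 ± 40.3 TPM (SD, n = 3), 37.3-fold. Among the transcripts above 0 of its library, Star stood at ranks 7082 to 21412 by TPM before hCG and at ranks 209 to 2426 after it, over both genotypes.

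The hCG effect on Star, averaged over both genotypes, passed the test across all transcripts. Its log2 fold change on the count scale was 6.32 (SE 1.49, 95% interval 3.40 to 9.24, edgeR adjusted p = 0.0268), a 79.8-fold rise, in 6 of 6 libraries against 6. The size depended on the scale: it was 45.8-fold in mean TPM and 46.6-fold on counts scaled by library totals only. This contrast called 57 of 32944 transcripts (0.173%), 39 higher and 18 lower, and Star had the 26th smallest p. The median log2 fold change of all transcripts tested in this contrast was -1.45, and it was -0.34 over the 14053 transcripts with at least 10 CPM on average (CPM is the count scaled to the library's size). Complete separation, with every library after hCG above every library before it in TPM, was seen for 28 transcripts (0.085%), Star among them. An exact stratified permutation test on log2(TPM + 1) of Star alone, chosen after the data were seen, gave p = 0.005 (two-sided, unadjusted, 1 of 6 such tests), the smallest that the 400 arrangements can give.

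Within a single genotype the rise of Star missed the adjusted threshold. In CTL the log2 fold change was 6.17 (SE 2.09, unadjusted p = 0.00321, edgeR adjusted p = 0.338), in a contrast that called 2 transcripts (0.00607%). Leaving out 1 library gave 5.61 to 9.30, the highest (629-fold against 71.9-fold) without library 3 before hCG. In cKO it was 6.47 (SE 2.12, unadjusted p = 0.00231, edgeR adjusted p = 0.266), in a contrast that called 0 transcripts (0%) by edgeR, 6135 at an unadjusted p under 0.05 and 3492 by DESeq2. DESeq2 called Star in both, with log2 fold changes of 6.23 (DESeq2 adjusted p = 0.0218) in CTL and 6.60 (DESeq2 adjusted p = 0.0103) in cKO. These calls stand among many: of the transcripts to which DESeq2 gave an adjusted p, it called 2631 of 25524 (10.3%) in CTL and 3492 of 25014 (14%) in cKO, and 5796 of 28123 (20.6%) in the averaged contrast, where it also called Star. Libraries after hCG lay wholly above those before it for 1.48% of transcripts in CTL and 0.814% in cKO. The hCG effects of the genotypes on Star differed by 0.30 on the log2 scale (SE 2.36, 95% interval -4.33 to 4.92, edgeR adjusted p = 1.00), an interval wide enough to hold large differences in either direction. Without library 3 of CTL before hCG this difference was -2.83.

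The adjusted call for Star depended on the libraries used, while its direction was kept whichever library was left out. Leaving out 1 library at a time kept the averaged log2 fold change between 5.90 and 7.88, while the adjusted p ran from 0.0296 to 0.185. The call held without library 2 of CTL after hCG, library 2 of cKO after hCG or library 3 of cKO after hCG, and was lost without any 1 of the other 9. Leaving out a library also lowered the filter on low counts, so that more transcripts were tested. Without library 3 of CTL before hCG, the control with the highest Star, the fold rose from 79.8 to 236 (adjusted p = 0.105). Without the 3 libraries that stand apart the log2 fold change was 6.10 (edgeR adjusted p = 0.270).

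**Figure D1:**
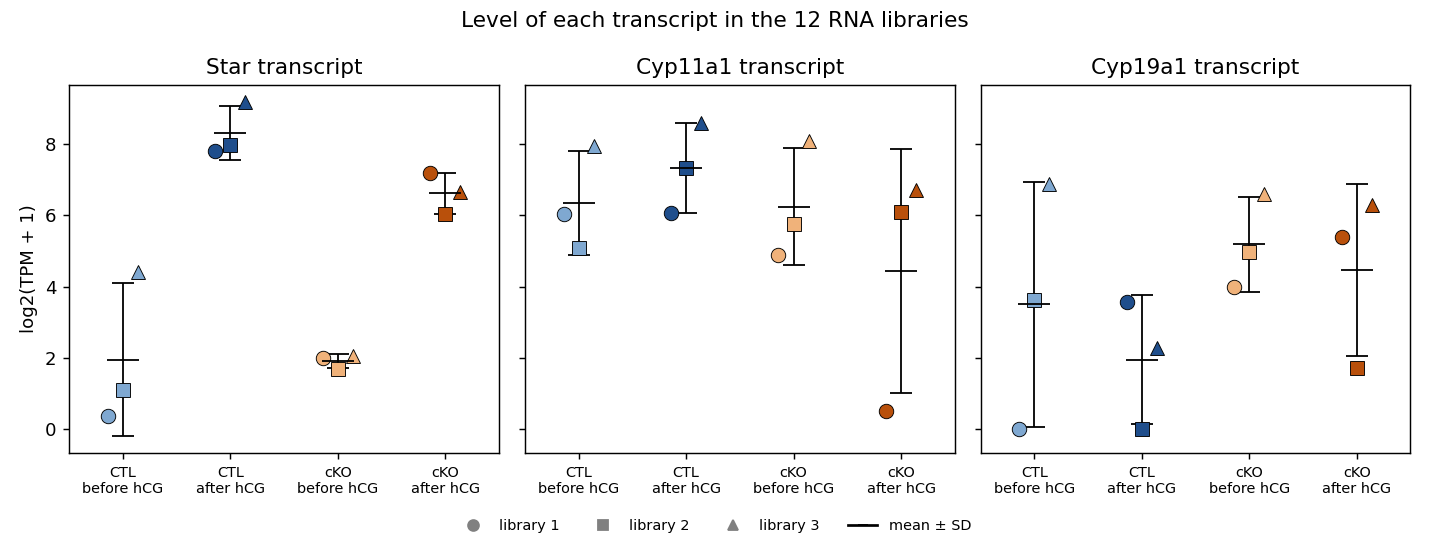
Level of the Star, Cyp11a1 and Cyp19a1 transcripts as log2(TPM + 1), 1 point per library with its number in the deposited tables as the marker shape, and the mean ± SD of the 3 log2 values of a group in black. Star in the 6 libraries after hCG (64.8 to 587 TPM) lies above all 6 before it (0.280 to 20.2 TPM), while Cyp11a1 and Cyp19a1 overlap between the 2 times of each genotype and between the genotypes at each time.

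**Figure D2:**
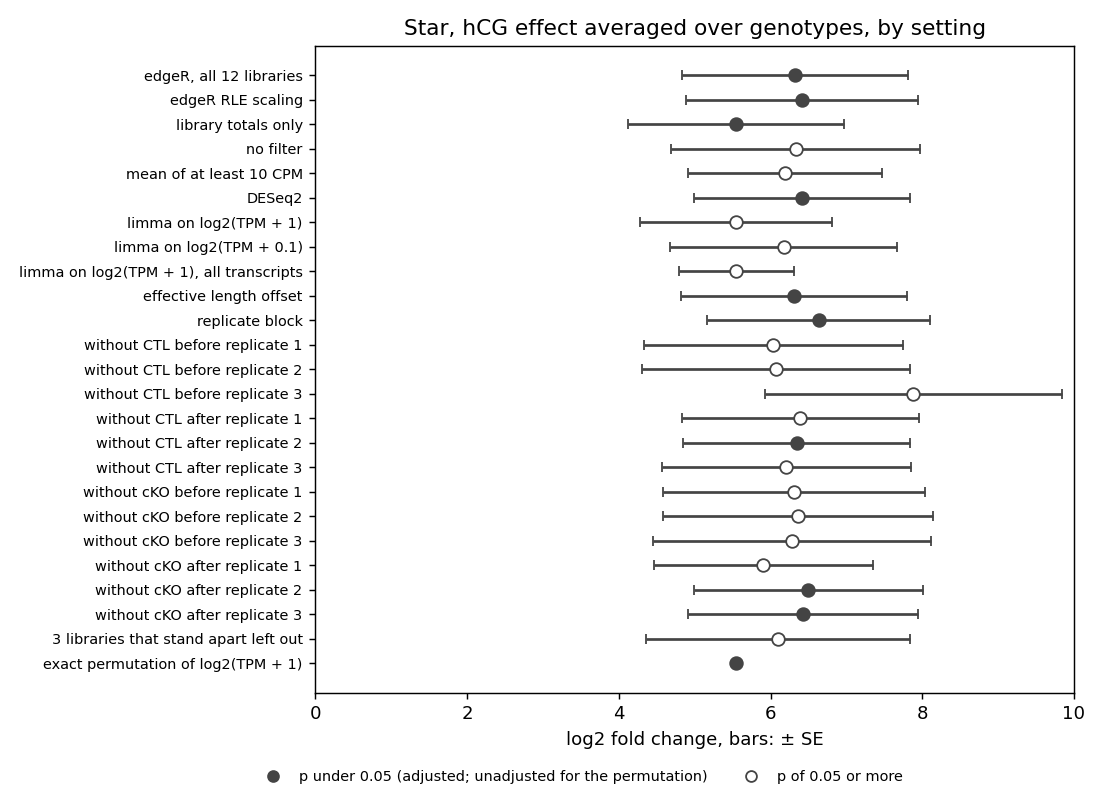
Log2 fold change of Star after against before hCG, averaged over the genotypes, under each setting (rows), with bars of ± SE. All estimates lie between 5.54 and 7.88, and filled points mark an adjusted p under 0.05 or, for the permutation test alone, an unadjusted one.

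After hCG, Star was lower in cKO than in CTL in the measured TPM, but the difference did not pass the test. The 3 cKO libraries (64.8 to 145 TPM) all lay below the 3 CTL libraries (223 to 587 TPM), and the CTL mean was 3.43 times the cKO mean. Such a full separation downwards was seen for 3.09% of transcripts. On counts with TMM scaling (trimmed mean of M-values) the log2 fold change was -1.001 (SE 1.69, 95% interval -4.31 to 2.31, edgeR adjusted p = 0.833), and the contrast called 3 transcripts (0.00911%). It was negative in all 24 alternatives, from -1.83 to -0.64. Before hCG the genotypes overlapped for Star, since the 3 cKO libraries lay between CTL libraries 2 and 3. The log2 fold change was -1.30 (SE 1.70, edgeR adjusted p = 1.00), in a contrast that called 2 transcripts (0.00607%), and it was 1.83 without CTL library 3.

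Cyp11a1 was already abundant before hCG and varied more within groups than between them. In CTL it held 64.4, 33.2 and 248 TPM before hCG and 66.2, 160 and 386 TPM after it. In cKO it held 28.8, 53.1 and 271 TPM before hCG and 0.426, 67.7 and 104 TPM after it. Library 3 was the highest of every group, and groups overlapped in every comparison. The group means were 115 ± 116, 204 ± 164, 118 ± 133 and 57.5 ± 52.7 TPM in that order (SD, n = 3).

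No effect on Cyp11a1 passed the threshold. The log2 fold change after hCG was 1.26 in CTL (SE 2.08, edgeR adjusted p = 0.904) and -0.13 in cKO (SE 2.05, edgeR adjusted p = 0.995). The hCG estimate in cKO depended on the scale, at -1.80 on log2(TPM + 1) and -2.27 on log2(TPM + 0.1). There the mean TPM after hCG was 0.489 times that before, while leaving out 1 library gave log2 fold changes of -0.91 to 0.95. The cKO effect was -0.10 before hCG (SE 2.05, edgeR adjusted p = 1.00) and -1.48 after it (SE 2.096, edgeR adjusted p = 0.774). The effect after hCG was negative in all 24 alternatives, from -3.37 to -0.91, and the value nearest 0 came from leaving out library 1 of cKO. That library held 16.9 estimated counts of the Cyp11a1 transcript (95% Poisson interval of the rounded count 9.90 to 27.2, counting error only), against 2573 and 4373 in libraries 2 and 3, while its Star level of 145 TPM was the highest of its group. Other transcripts of Cyp11a1, which can take reads from the one followed here, were not summed. The intervals of these 4 effects reached at least from -2.83 to 2.62, so changes of several fold in either direction were not detectable here. The test of the difference between the hCG effects gave -1.38 (95% interval -7.10 to 4.33, edgeR adjusted p = 0.951), in a contrast that called 11 transcripts (0.0334%).

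Cyp19a1 was listed at 0 in 2 of the 12 libraries and held 77.9 TPM or more in 3 others. In CTL it was listed at 0, 11.2 and 118 TPM before hCG and at 10.9, 0 and 3.81 TPM after it. In cKO it held 14.8, 30.1 and 96.7 TPM before hCG and 40.8, 2.28 and 77.9 TPM after it. The 2 libraries at 0, library 1 of CTL before hCG and library 2 of CTL after hCG, allow up to 3 counts (a one-sided limit, for counting error only), or 0.0942 and 0.0855 TPM. The second of these also held the fewest transcripts above 0, at 11784, and the part of this in the 0 was not tested. Reads given to other transcripts of Cyp19a1 were not summed. The group means were 43.1 ± 65.1 and 4.91 ± 5.54 TPM in CTL, and 47.2 ± 43.5 and 40.3 ± 37.8 TPM in cKO (SD, n = 3).

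After hCG the mean of Cyp19a1 was 8.21 times higher in cKO than in CTL, with 2 of 3 cKO libraries above every CTL library and the remaining one, library 2, inside their range. The log2 fold change was 3.54 (SE 2.82, 95% interval -1.98 to 9.07, edgeR adjusted p = 0.516), and it was positive in all 24 alternatives, from 2.52 to 5.43, the highest without library 1 of CTL after hCG. Between the times, the CTL mean was 8.77 times higher before than after hCG, with overlapping libraries and a log2 fold change of -2.43 (SE 2.69, edgeR adjusted p = 0.790). This direction rested on library 3 before hCG, without which the log2 fold change was 0.31. In cKO the hCG effect was 1.00 (SE 2.58, edgeR adjusted p = 0.888) on the log2 scale, and its sign turned with the scaling, to -0.0085 with library totals only. The hCG effects of the genotypes differed by 3.43 (SE 3.71, 95% interval -3.84 to 10.7, edgeR adjusted p = 0.747). Without library 3 of CTL before hCG this difference was 0.68, without library 1 of CTL after hCG it was 5.30, and on log2(TPM + 1) it was 0.84. Before hCG the genotypes stood at a log2 fold change of 0.12 (SE 2.55, edgeR adjusted p = 1.00).

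Averaging over both times gave the comparison of genotypes its most libraries, 6 against 6, and called none of the 3, against 20 of all transcripts (0.0607%). The log2 fold changes of cKO over CTL were -1.15 for Star (95% interval -3.50 to 1.20, edgeR adjusted p = 0.719), -0.79 for Cyp11a1 (95% interval -3.66 to 2.07, edgeR adjusted p = 0.913) and 1.83 for Cyp19a1 (95% interval -1.82 to 5.48, edgeR adjusted p = 0.709). Star and Cyp11a1 thus had lower and Cyp19a1 higher estimates in cKO, none beyond its error, and without library 3 of CTL before hCG the estimate for Star was 0.42. The exact stratified permutation tests on log2(TPM + 1) gave p = 0.255, 0.275 and 0.15 (two-sided, unadjusted). Averaged over the genotypes, the hCG effects on Cyp11a1 and Cyp19a1 were 0.57 (95% interval -2.29 to 3.42, edgeR adjusted p = 0.881) and -0.72 (95% interval -4.27 to 2.84, edgeR adjusted p = 0.878), with exact permutation p = 0.8 and 0.425. The sign for Cyp11a1 turned under other settings, to -0.071 with library totals only and -0.42 on log2(TPM + 1), and that for Cyp19a1 was 0.65 without library 3 of CTL before hCG.

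**Figure D3:**
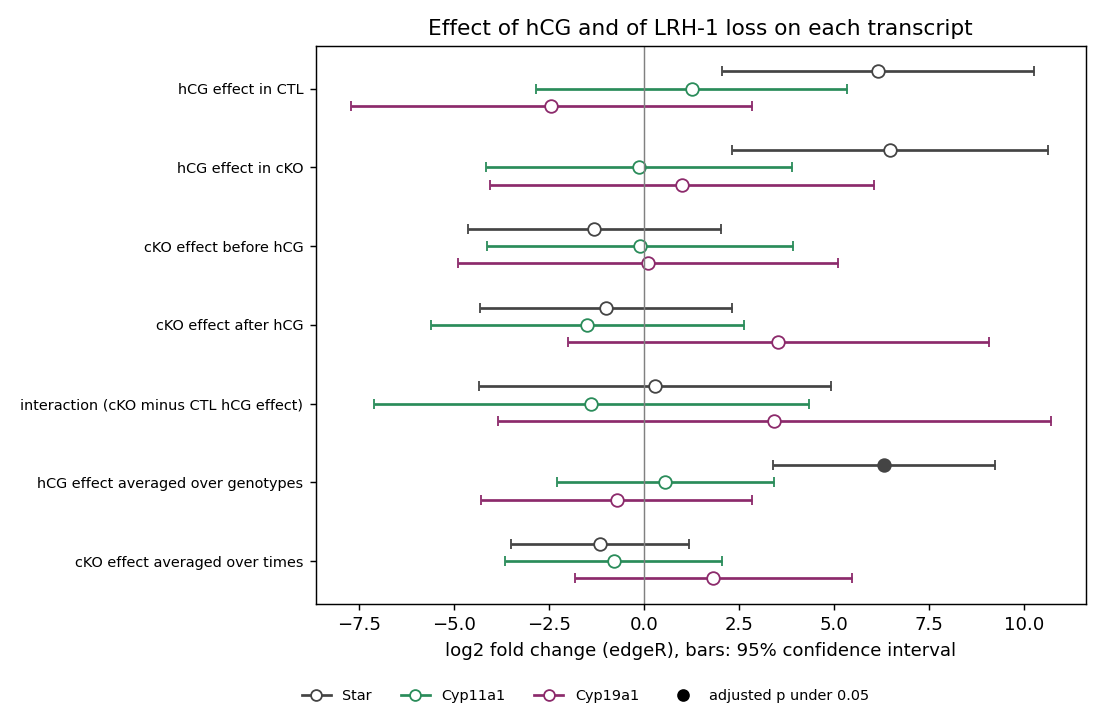
Log2 fold changes from edgeR (x axis) of the 3 transcripts in the 7 contrasts (y axis), with 95% confidence intervals. The filled point, Star for the hCG effect averaged over genotypes (6.32), is the one effect with an adjusted p under 0.05. The intervals of Star for hCG lie above 0 and those of Cyp11a1 and Cyp19a1 include 0.

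The order of the 3 transcripts within a library, which does not depend on the scaling between libraries, changed with hCG. Cyp11a1 was the highest of the 3 in 6 of 6 libraries before hCG, with Star at 0.00435 to 0.103 times its TPM. After hCG Star was the highest in 4 of 6. In CTL it stood at 3.37, 1.57 and 1.52 times Cyp11a1, and in libraries 2 and 3 of cKO at 0.958 and 0.950 times, so that both transcripts were about level there. Library 1 of cKO, with its few Cyp11a1 counts, gave 341 times. On a log2 scale with 0.5 TPM added, this ratio ran from -6.38 to -3.08 before hCG and from -0.074 to 7.30 afterwards. These ranges did not overlap, but Star alone was separated in the same way while Cyp11a1 overlapped. The share of other transcript pairs with such a separation was not computed.

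Cyp11a1 and Cyp19a1 kept a narrow ratio before hCG except in 1 library. Cyp11a1 stood at 1.94, 1.76 and 2.80 times Cyp19a1 in the cKO libraries and at 2.95 and 2.099 times in CTL libraries 2 and 3, although across these 5 libraries Cyp11a1 ran from 28.8 to 271 TPM and Cyp19a1 from 11.2 to 118 TPM. Library 1 of CTL, with Cyp19a1 at 0 and Cyp11a1 at 64.4 TPM, stood outside. After hCG the ratio scattered, with 6.07 and 101 in CTL libraries 1 and 3 and 0.0104, 29.7 and 1.34 in the cKO libraries. These ratios are descriptions and were not tested.

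**Figure D4:**
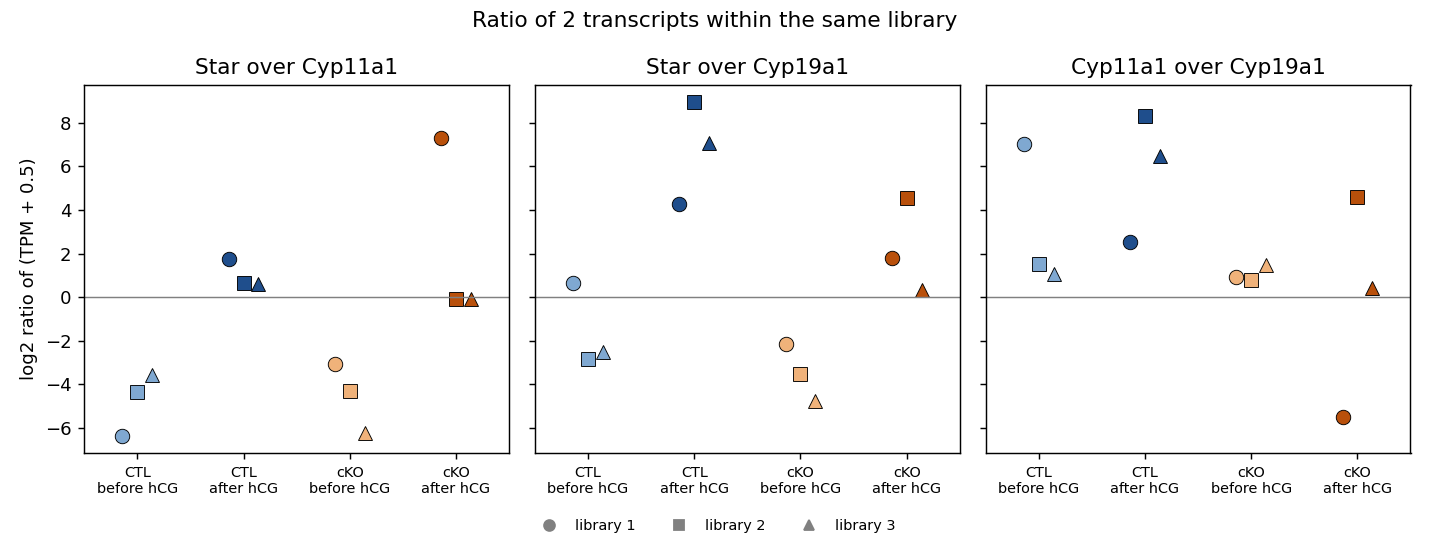
Log2 ratio of TPM (0.5 added to each) of 2 of the transcripts within the same library, by group, 1 point per library. Star over Cyp11a1 is at most -3.08 in the 6 libraries before hCG and at least -0.074 in the 6 after it, and Cyp11a1 over Cyp19a1 lies between 0.81 and 1.52 in 5 of 6 libraries before hCG.

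Over the 12 libraries the 3 transcripts had correlations near 0 with each other. Pearson's r of log2(CPM + 1), was 0.033 between Star and Cyp11a1, -0.033 between Star and Cyp19a1 and -0.159 between Cyp11a1 and Cyp19a1, with libraries of the same group as points and no test. Among 14050 other transcripts averaging 10 CPM or more, the one most like Star was ENSMUST00000210565 (633 bases, r = 0.946), at 0 to 80.2 TPM before hCG and 928 to 6380 TPM after it. The one most like Cyp11a1 was ENSMUST00000001181 (3949 bases, r = 0.915), which was also lowest in library 1 of cKO after hCG, where it was listed at 0. The one most like Cyp19a1 was ENSMUST00000154991 (870 bases, r = 0.884), whose lowest values, 17.6 and 18.2 TPM, fell in the 2 libraries where Cyp19a1 was at 0. These are the highest of many correlations over few libraries, and no table used here pairs the identifiers with genes.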

How the data were processed

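Granulosa cell RNA (300 ng per library) was sequenced in 12 libraries of 4 groups. Per the submitters' processing notes, Trimmomatic, TopHat2 2.0.12, kallisto and DESeq2 were used, with no role or order given; no label used here names the transcript annotation. Per the file headers, each library's deposited table holds TPM and estimated counts per transcript; library numbers come from these tables, as the labels give none. Peak lists were not used.

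Estimated counts were rounded. In R 4.3.3, edgeR 4.0.16 (filterByExpr, TMM) fitted all 12 libraries in 1 model with 7 contrasts; SE is the log2 fold change over the root of F. Alternatives used limma 3.58.1, DESeq2 1.42.0 and the settings named below. The fit was tested on simulated counts. Other transcripts of the 3 genes, which can take their reads, were not summed. The genes, motifs and tests were chosen with earlier results of these data known. The named transcripts are the 3 members and, for each, the 1 most correlated over 12 libraries. Unadjusted permutation tests and the AGGTCA search were added after the data were seen. The pathway, marker and peak analyses that were planned were not run, as no table used here gives transcript names or mm9 gene positions.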

Additional observations from a re-analysis of the deposited data

How the results depend on the processing

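How far the spread between libraries and counting error each limit these results was not tested. Star after hCG, averaged over genotypes, kept its direction in all 24 alternatives (5.54 to 7.88 on the log2 scale) and its side of the threshold in 9, one of them the unadjusted permutation test. The call was lost with no filter (6.33), a mean of at least 10 CPM (6.19), limma on log2(TPM + 1) (5.55, over expressed or all transcripts), limma on log2(TPM + 0.1) (6.18) and without the 3 libraries that stand apart (6.10); leaving out 1 library gave 5.90 to 7.88. DESeq2 also called Star in CTL (6.23) and in cKO (6.60). Leaving out 1 library gave 5.61 to 9.30 for Star in CTL and 0.68 to 5.30 for the difference between the genotypes' hCG effects on Cyp19a1. The causes were not tested.

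Of 501 alternatives of the 21 estimates, 452 kept direction and side, and none of the 32 that reversed passed the threshold. With library totals only, the hCG effect on Cyp19a1 in cKO was -0.0085, the difference between the genotypes' hCG effects on Star -0.22 and the averaged hCG effect on Cyp11a1 -0.071. With limma on log2(TPM + 1) these were -0.72, -1.65 and -0.42 (the last also in the permutation test), over expressed or all transcripts, and on log2(TPM + 0.1) -0.84, -2.13 and -0.64, with Star in cKO before hCG at 0.42. Without the 3 libraries that stand apart, the cKO effects before hCG were 0.12 for Cyp11a1 and -0.039 for Cyp19a1. Leaving out 1 library ran from -4.31 to 0.31 for the hCG effect on Cyp19a1 in CTL, from -0.91 to 0.95 for Cyp11a1 in cKO, from -1.86 to 1.83, -1.18 to 0.96 and -0.56 to 2.86 for the cKO effects before hCG on Star, Cyp11a1 and Cyp19a1, from -2.83 to 0.86 for the difference between the genotypes' hCG effects on Star, from -1.66 to 0.65 for the averaged hCG effect on Cyp19a1 and from -1.56 to 0.42 for the averaged cKO effect on Star.

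No label pairs libraries by number, so a replicate block (number) was only an alternative. On deviations from group means, median r was 0.045 for same-number pairs (7 of 18 over 0.1) and -0.021 for others (up to 0.143). Same-number r was 0.250 to 0.347 among the 3 libraries that stand apart and at most 0.051 with cKO after hCG. The best partner shared the number in 9 of 12 libraries, at most a hint of pairing. The block gave 6.63 for the averaged hCG effect on Star, -0.43 for Cyp19a1 after hCG in cKO and -0.45 for the difference between the genotypes' hCG effects on Star, and changed no call for the 3 transcripts.

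Counts of called transcripts were highest with DESeq2, which also changed the scaling and the transcripts tested. For the hCG effect in CTL, in cKO and averaged, edgeR called 2, 0 and 57 and DESeq2 2631, 3492 and 5796. For the cKO effect before hCG, after hCG and averaged, the counts were 2, 3 and 20 against 992, 3483 and 3179, and for the difference between genotypes 11 against 3166. Leaving out 1 library gave 0 to 5, 0 to 8, 2 to 39, 0 to 5, 0 to 8, 3 to 18 and 2 to 14 in that order, and the alternatives other than DESeq2 gave 0 to 7, 0 to 8, 0 to 76, 0 to 4, 0 to 4, 0 to 30 and 0 to 11. With library totals only, the averaged hCG effect called 24 higher and 52 lower (39 and 18 with TMM), and the median of all transcripts moved from -1.45 to -2.04; it was -0.34 with a mean of at least 10 CPM and -0.33 with limma on log2(TPM + 1) over all transcripts.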
